A study of Mus musculus with 12 samples.

Results

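The cells described here are splenic γδ T cells in which RNA of both variable segments Trgv6 and Trdv4 was counted but no RNA of Il17a. They were chosen from the count tables by a rule. A cell needed at least 500 UMIs (unique molecular identifiers, each counting 1 captured RNA molecule), at least 1 UMI of Trgv6 and 1 of Trdv4, no UMI of Il17a and at most 1 UMI of Gzma. This rule was met by 10199 of 38495 splenic cells, and the whole series holds 97404 cells of that depth. They are called the Trgv6 Trdv4 cells here, and cells with Il17a UMIs are named as such.

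Splenic CD3+ CD4neg γδ T cells of adult mice were sorted after magnetic removal of B, myeloid and NK cells and sequenced with the 10x Genomics 3′ kit. The mice were either wild type (WT) or carried a germline deletion of Gfi1 (GFI1 KO), a zinc finger repressor of transcription. The cells of both genotypes were marked with different hashtag antibodies and mixed, and 2 such pools were run, which gives the libraries WT 1, KO 1, WT 2 and KO 2. The methods of the study place all mice on the C57BL6/J background. The labels give neither the number of mice nor whether the pools came from separate animals, so p-values measure the spread between these libraries. Where 2 classes of cells of the same library are compared, they rest on how much such differences varied from library to library. That spread is estimated in large part over all genes together and not for each gene alone. In neither case do they measure a spread between mice. No treatment is named for either group.

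In the mouse, γδ T cells that carry Vγ6 paired with the Vδ chain encoded by Trdv4 arise in the fetal thymus, settle in skin, lung, tongue, uterus and other barrier tissues, and are poised to make interleukin 17. They share a programme set by factors that include MAF (Maf) and SOX13, and they respond to interleukin 1 and interleukin 23 without a need for new priming. γδ T cells that make interferon γ instead carry CD27 and use other Vγ segments. The absence of Il17a RNA does not mark a cell as unable to make the cytokine, since the transcript is scarce in resting cells and 3′ counting catches a part of it.

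The 2 segments that defined the cells are shown at their 3′ ends, where the receptor's own joint begins, beside 2 segments used by other γδ T cells. The sequences are those of GENCODE transcripts of assembly GRCm38, matched by gene ID. Each line gives 60 bases in lower case and then, in capitals, the codon of the conserved cysteine and the germline bases after it.
Trgv6: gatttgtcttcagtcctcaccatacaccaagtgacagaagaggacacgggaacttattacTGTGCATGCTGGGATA
Trdv4: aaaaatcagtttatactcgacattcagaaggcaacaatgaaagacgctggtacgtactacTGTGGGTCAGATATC
Trgv5: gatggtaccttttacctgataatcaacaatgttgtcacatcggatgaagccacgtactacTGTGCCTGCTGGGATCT
Trgv2: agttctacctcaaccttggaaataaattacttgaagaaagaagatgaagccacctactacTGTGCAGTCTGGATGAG
Over the 60 lower case bases Trgv6 matched the 6 other Trgv segments at 22 to 31 positions. Over the whole transcripts, its longest run shared with each of them was 9 to 14 bases. Trgv1 and Trgv3 were identical over the 60 bases and Trgv2 differed from them at 2 positions. Reads from there may not tell those segments apart, while Trgv6 stands apart.

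The rule was met in few cells of the libraries labelled WT and in about every other cell of those labelled KO. It took 268 of 7833 cells in WT 1 (3.42%, exact 95% interval 3.03 to 3.85) and 273 of 11165 in WT 2 (2.45%, 2.17 to 2.75). In KO 1 it took 4018 of 7818 (51.4%, 50.3 to 52.5) and in KO 2 5640 of 11679 (48.3%, 47.4 to 49.2). Both KO values lay above both WT values. The mean share was 49.8% ± 2.19 (SD, n = 2) with the label KO and 2.93% ± 0.690 with the label WT, a difference of 46.9 percentage points that was 48.0 in pool 1 and 45.8 in pool 2. With 2 libraries of each label, an exact permutation test (two-sided) gave p = 0.33, its lower limit. The genes behind this share chose the cells, so it is a description. The intervals cover counting error only. Together the cells held 1924131 and 2040245 UMIs in WT and 25729055 and 36046014 in KO.

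The share was lower at a common depth. The median cell held 6767 and 6475 UMIs among the Trgv6 Trdv4 cells of WT 1 and WT 2, and 5806 and 5704 in KO 1 and KO 2, against 4890 to 5120 among the other splenic cells. After every cell was thinned to 2000 UMIs, the share was 1.16% and 0.802% in WT and 19.0% and 19.1% in KO. Shallower cells were left out, so 7227 of 7833 and 9971 of 11165 cells of WT and 7693 of 7818 and 11376 of 11679 of KO entered. The same rule was met by 0 of 7279 and 0 of 7618 cells of the DN1-DN3 sort of thymus labelled WT, which allows shares of up to 0.0412% and 0.0394% by a limit of 3 cells (exact 95% upper bounds 0.0507% and 0.0484%), and by 2 and 3 cells with the label KO. Median depth in those libraries was 5572 to 6180 UMIs. Few of the WT cells there held either segment, with 30 and 24 cells holding Trgv6 alone and 5 and 8 Trdv4 alone. They therefore give no measure of free RNA in the splenic runs, where WT and KO cells were run together, and the part of such RNA in the WT share was not tested.

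**Figure D1:**
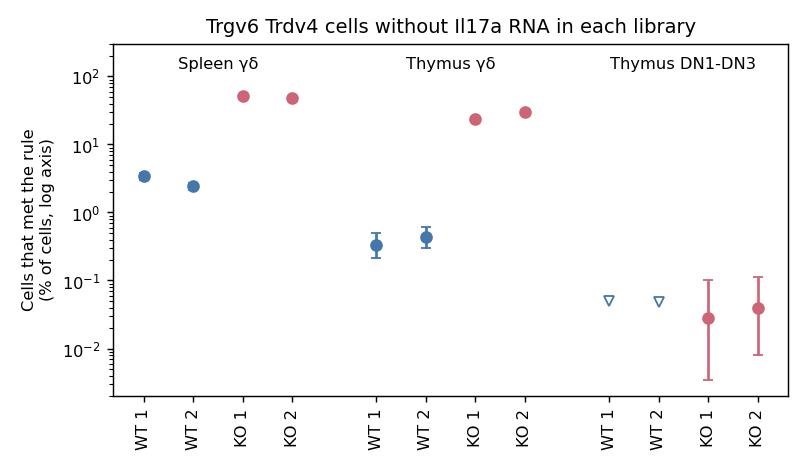
Share of cells that met the rule in each of the 12 libraries, as percent of cells on a log axis. Points are libraries, bars are exact 95% binomial intervals, and open triangles mark the upper bound where no cell met the rule. The splenic KO libraries sit at 51.4% and 48.3%, above WT at 3.42% and 2.45%.

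Many cells lay next to the limits of the rule. Of the Trgv6 Trdv4 cells, 141 and 155 in WT and 1910 and 2677 in KO had a single Trgv6 UMI, and 34, 39, 398 and 620 had a single UMI of both segments. A single Gzma UMI was held by 0 and 3 in WT and 44 and 54 in KO. Just outside, 0 and 2 cells in WT and 11 and 16 in KO had 2 Gzma UMIs, and 5 and 9 in WT and 213 and 655 in KO had 1 Il17a UMI. No cell was near the limit of 500 UMIs, since the shallowest held 821. A UMI of another Trgv segment was seen in 65.7% and 68.1% of the cells in WT and in 49.3% and 57.8% in KO.

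Il17a RNA was caught in a small part of the cells with both segments. It was 6 of 275 in WT 1 (2.18%, exact 95% interval 0.805 to 4.69), 10 of 290 in WT 2 (3.45%, 1.67 to 6.25), 383 of 4455 in KO 1 (8.60%, 7.79 to 9.46) and 1061 of 6765 in KO 2 (15.7%, 14.8 to 16.6). Both KO values were above both WT values and KO 2 was above KO 1. At 2000 UMIs per cell only cells with at most 1 Gzma UMI were counted. The values were then 0 of 84 and 2 of 82 (2.44%) in WT. In KO they were 75 of 1540 (4.87%) and 183 of 2354 (7.77%). The unthinned difference was 9.33 points. The rule used Il17a and both segments, so the values are a description.

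The Trgv6 Trdv4 cells carried the markers of the interleukin 17 lineage in every library. The rule did not use these genes. Scart1, a scavenger receptor of Vγ6 cells, stood at 2311 and 2389 CPM (counts per 1000000 gene UMIs of the same cells) in WT and 3057 and 3335 in KO. Between KO and WT it did not pass the test described below, at 0.40 (SE 0.14, adjusted p = 0.092 by edgeR), and it was called in 3 of 18 alternatives, among them the fit with the pool as a replicate block (adjusted p = 0.00489 by edgeR). It was caught in 99.6% and 98.9% of the WT cells and, at 2000 UMIs per cell, in 98.5% and 97.8%, against 7.32% and 15.2% of WT cells with neither segment. Maf stood at 782 and 662 CPM in WT and 1409 and 1414 CPM in KO. The UMIs of Maf, Scart1, Blk and Cxcr6 together had a median of 32 per cell in both WT libraries and 44 in both KO libraries. Among the other splenic cells the median was 1 in WT but 36 and 39 in KO.

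Cells held by a single UMI of each segment carried the marker Scart1 as well. With 1 UMI of both, Scart1 was 2003 and 2206 CPM in WT and 3078 and 3309 in KO. With at least 2 UMIs of both, it was 2281 and 2417 CPM in WT and 3106 and 3350 in KO. Cells with only Trdv4 held 1240 and 1132 CPM of Scart1 in WT and 2931 and 3319 in KO, and cells with only Trgv6 held 696 and 443 in WT and 3065 and 3309 in KO. In WT the level was lower where a segment was missing, and lowest at 63.2 and 127 CPM with neither. In KO it stayed at 2108 and 2869 CPM with neither, so most other cells of the KO libraries held this marker too.

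The genes listed as markers of other kinds of cells ranged from absent to clearly present. Their RNA alone does not show that such cells were among the Trgv6 Trdv4 cells. Cd4 had no UMI in the Trgv6 Trdv4 cells of any library, and Cd79a had none in WT and 8 and 17 UMIs in KO. The 8 B cell markers summed to 191 and 265 CPM in WT and 91.2 and 76.1 CPM in KO, while the other splenic cells of WT held 469 and 231 CPM, so WT 2 was higher in the Trgv6 Trdv4 cells. Of 7 B cell genes tested between those cells of WT, Cd79b (95.6 and 72.5 against 24.7 and 21.9 CPM) and H2-Aa (6.76 and 7.35 against 0.995 and 0.904 CPM) were called higher by edgeR. The 8 myeloid markers summed to 1.56 and 0.490 CPM in WT and 1.44 and 0.721 CPM in KO, and the 4 platelet markers to 0.333 to 1.04 CPM. The 6 αβ T markers summed to 1335 and 1344 CPM in WT and 996 and 967 in KO, most of it from the constant genes Trbc1 and Trbc2 at 375 and 398 and 881 and 842 CPM in WT, and the 5 erythroid markers to 22.9 and 23.5 CPM in WT and 35.8 and 72.8 in KO. Their part in the differences below was not tested.

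Libraries of 1 pool shared no cell barcode, and libraries of different pools shared 15 to 26. The other genotype's hashtag had a median of 153 and 175 UMIs in the KO cells, against 785 and 529 of their own, and of 50 and 45 in the WT cells, against 1179 and 1073. Its part in the differences was not tested.

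The targeted gene did not check the labels. Gfi1 stood at 4.68 and 17.2 CPM in the Trgv6 Trdv4 cells of WT 1 and WT 2 (9 and 35 UMIs) and at 18.1 and 17.3 CPM in KO 1 and KO 2. WT 2 was close to the KO libraries and WT 1 was below them. The log2 difference, KO minus WT, was 0.64 (SE 0.35, adjusted p = 0.315 by edgeR), and without WT 2 it was 1.85 with an edgeR adjusted p = 0.0107, in a range of 0.0107 to 0.935 over 18 alternatives. The 3′ end of a transcript can still be counted from a deleted allele, and the labels are used as given.

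The first comparison asked how the Trgv6 Trdv4 cells of the KO libraries differed from the same cells of the WT libraries. UMIs were summed per library and tested with edgeR's quasi-likelihood test, and a gene was called at a Benjamini-Hochberg adjusted p under 0.05. Of 11505 genes tested, 1347 were called, which is 11.7%, with 554 higher in KO (4.82%) and 793 lower (6.89%). The median log2 difference of all genes was 0.0025. The WT libraries rest on 268 and 273 cells, and the count was 670 without KO 1, 684 without KO 2, 741 without WT 2 and 1357 without WT 1. It was 1987 with the pool as a replicate block, of which 1343 were shared with the 1347. In 54.9% of all genes tested the 2 WT and the 2 KO values did not overlap.

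The regulators of the lineage moved in part. Of 16 such genes, 5 rose, 2 fell and 9 did not pass the test, with a median log2 difference of 0.36. Maf, the factor upstream of many genes of this lineage, stood at 782 and 662 CPM in WT and 1409 and 1414 CPM in KO. The KO values were close to each other and above both WT values, with a log2 difference of 0.92 (SE 0.14, adjusted p = 0.00175 by edgeR). It was called in each of 18 alternatives, at 0.69 to 1.11. Zeb2, a zinc finger factor better known from effector T and myeloid cells, rose most, from 49.9 and 44.6 CPM to 414 and 438 CPM. The groups were far apart and the log2 difference was 3.13 (SE 0.13, adjusted p = 9.49e-07 by edgeR).

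Blk, a Src kinase needed for interleukin 17-producing γδ T cells, rose from 867 and 771 CPM to 1235 and 1325 CPM, a log2 difference of 0.59 (SE 0.13, adjusted p = 0.014 by edgeR). Ahr, the aryl hydrocarbon receptor, rose by 1.28 and Nfkbiz, a nuclear IκB protein, by 0.61 on the log2 scale. Gata3 fell from 123 and 104 CPM to 80.4 and 81.4 CPM and Sox4 from 8.84 and 16.7 CPM to 1.44 and 3.66 CPM, which was at 0.19 on the log2 scale and not called among cells without 5 markers of other γδ T cells, described below. Rora at 0.40 (SE 0.13, adjusted p = 0.0844 by edgeR) and Sox13 at 0.22 (SE 0.11, adjusted p = 0.261 by edgeR) did not pass the test. With the pool as a replicate block, Rora was called.

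Of 12 regulators of type 1 and naive-like T cells, 6 fell and the other 6 did not pass, with a median log2 difference of −1.31. Among those averaging at least 20 CPM the median was −0.72. Tcf7, which encodes TCF-1, stood at 188 and 268 CPM in WT and 23.6 and 38.5 CPM in KO. Every KO value was below every WT value, and the log2 difference was −2.92 (SE 0.25, adjusted p = 0.000965 by edgeR). Without WT 2 the adjusted p by edgeR was 0.0673, and the gene was called in the other 17 alternatives. Its partner Lef1 fell from 174 and 243 CPM to 42.7 and 47.5 CPM, a log2 difference of −2.25 (SE 0.13, adjusted p = 5.31e-06 by edgeR). Bach2, a repressor of effector genes, fell from 119.5 and 175 CPM to 25.9 and 30.1 CPM, a log2 difference of −2.44 (SE 0.15, adjusted p = 5.58e-06 by edgeR).

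Aff3 fell from 122 and 207 CPM to 4.43 and 10.3 CPM, Foxp1 from 388 and 502 CPM to 295 and 286 CPM and Foxo1 from 150.2 and 176 CPM to 107 and 97.5 CPM. These genes are also high in the other splenic cells of WT, where Tcf7 stood at 548 and 605 CPM and Aff3 at 706 and 675 CPM. Cells with no UMI of 5 markers of other γδ T cells (Cd27, Ly6c2, Cd160, Scart2, Ccr9) made up 81.7% and 60.8% of the WT cells and 90.7% and 83.6% of the KO cells. Among those cells, an alternative chosen after the data had been seen, Tcf7 fell by 2.57, Lef1 by 1.24 and Bach2 by 1.85 on the log2 scale and all were called, while Foxp1 at −0.012 and Foxo1 at −0.28 were not. In that alternative 932 genes were called, 796 of them among the 1347.

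**Figure D2:**
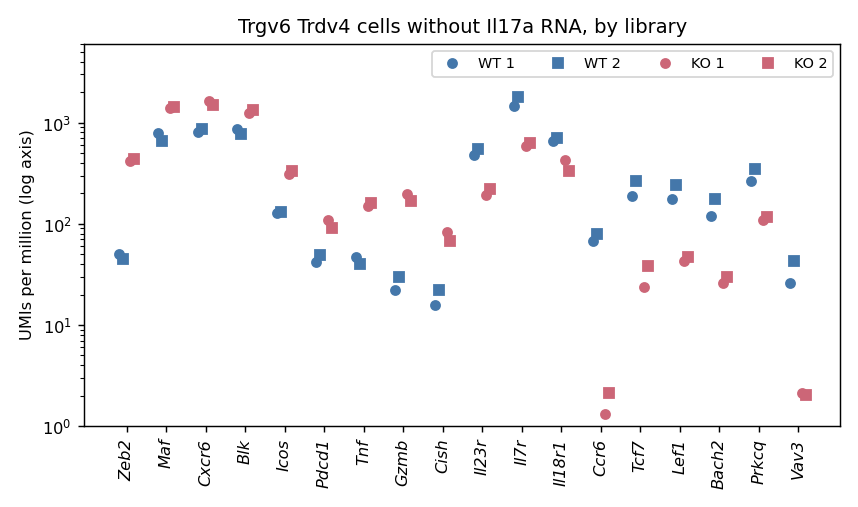
Level of 18 genes in the Trgv6 Trdv4 cells of each library, in CPM on a log axis. Circles are pool 1, squares pool 2, blue WT and red KO. For Zeb2 the KO points lie at 414 and 438 and the WT points at 49.9 and 44.6, and for Ccr6 the KO points lie at 1.32 and 2.14.

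The receptors for cytokines moved in both directions. Of 18 genes, 4 rose, 6 fell and 8 did not pass, with a median log2 difference of −0.31. Il23r, the specific chain of the interleukin 23 receptor, stood at 481 and 549 CPM in WT and 194 and 220.3 CPM in KO. The KO values were under the WT values by more than the spread of either pair, with a log2 difference of −1.36 (SE 0.11, adjusted p = 3.21e-05 by edgeR). At 2000 UMIs per cell it was caught in 56.6% and 58.0% of WT and 27.0% and 30.7% of KO cells (unthinned 82.5%, 85.0%, 47.2% and 55.3%), against 3.96% and 3.38% of WT cells with neither segment. Il7r, the interleukin 7 receptor, fell from 1459 and 1791 CPM to 584 and 623 CPM, a log2 difference of −1.47 (SE 0.13, adjusted p = 4.7e-05 by edgeR). Both falls were called in each of 18 alternatives.

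Il18r1, a chain of the interleukin 18 receptor, fell from 659 and 709 CPM to 426 and 330.3 CPM, while its partner Il18rap stood at 88.4 and 76.95 CPM in WT and 133 and 111 CPM in KO. Il18rap was called at 0.52 (SE 0.15, adjusted p = 0.0493 by edgeR), and it was called in 7 of 18 alternatives, where its adjusted p reached 0.806. Il1r1, the signalling receptor for interleukin 1, rose from 363 and 339.7 CPM to 531 and 514 CPM, a log2 difference of 0.53 (SE 0.12, adjusted p = 0.0155 by edgeR), and was called in 10 of 18 alternatives, not without WT 2, KO 1 or KO 2. Il2ra rose by 0.56 and Il12rb1 by 0.72 on the log2 scale. Ifngr1 fell from 287 and 401 CPM to 112 and 69.4 CPM, with an adjusted p of 0.33 by edgeR with the replicate block, 0.185 without WT 1 and 0.291 without WT 2, against 0.016 as fitted. Il6st and Il6ra, the chains of the interleukin 6 receptor, fell by 2.51 and 1.57 on the log2 scale, from at most 31.9 CPM. Among cells with no UMI of the 5 markers both turned, to 2.15 for Il6st and 0.28 for Il6ra (adjusted p = 0.11 and 0.916 by edgeR), and they were called in 12 of 18 and 8 of 16 alternatives.

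Feedback and survival genes differed as well, with 4 of 10 higher, 2 lower, 4 not past the test and a median of 0.31. Cish, an inhibitor induced by STAT5, rose from 15.6 and 22.1 CPM to 82.9 and 68.1 CPM, a log2 difference of 1.96 (SE 0.20, adjusted p = 0.000126 by edgeR). Socs1 rose from 48.9 and 45.6 CPM to 98.4 and 89.9 CPM. Socs3, an inhibitor of signals through gp130 and STAT3, fell from 15.1 and 18.6 CPM to 1.36 and 2.33 CPM, a log2 difference of −3.22 (SE 0.34, adjusted p = 0.000174 by edgeR). The related genes thus differed in opposite directions in the same libraries. Bcl2a1b and Bcl2a1d, near-identical survival genes whose reads can be hard to tell apart, rose by 0.49 and 0.72 on the log2 scale. Bcl2l11, which encodes the killer protein BIM, fell by 1.32 on the log2 scale.

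Among chemokine receptors and homing genes, 3 of 19 rose, 5 fell and 11 did not pass (median −0.011). Ccr6, the receptor that guides interleukin 17-producing cells to sites of CCL20, stood at 67.04 and 79.4 CPM in WT and 1.32 and 2.14 CPM in KO. It was the largest fall among the genes named, with the groups far apart and a log2 difference of −5.41 (SE 0.21, adjusted p = 5.88e-07 by edgeR). Over 18 alternatives it lay at −5.80 to −5.18. A Ccr6 UMI was caught in 28.0% and 33.0% of WT cells and 0.772% and 0.887% of KO cells, and at 2000 UMIs per cell in 8.99% and 13.4% against 0.274% and 0.374%. WT cells with neither segment held one in 2.29% and 1.80% at that depth.

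Cxcr6, a receptor of tissue-resident T cells, rose from 812 and 857 CPM to 1621 and 1486 CPM, a log2 difference of 0.85 (SE 0.13, adjusted p = 0.00164 by edgeR). Itgb5, an integrin chain, rose from 47.8 and 32.3 CPM to 141 and 171 CPM and Ltb4r1, the leukotriene B4 receptor, from 231 and 179.9 CPM to 374 and 346 CPM. S1pr1, which lets lymphocytes leave tissue, fell from 251 and 247 CPM to 152 and 171 CPM, a log2 difference of −0.67 (SE 0.11, adjusted p = 0.00231 by edgeR). Ccr7, Ccr9 and Cxcr4 fell by 3.17, 3.32 and 0.81 on the log2 scale. Ccr2 stood at 694 and 628 CPM in WT and 967 and 843 CPM in KO and did not pass the test, at 0.41 (SE 0.14, adjusted p = 0.0922 by edgeR), and it was called with the replicate block.

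Of 19 surface receptors, 2 were called higher and 7 lower and 10 did not pass the test, with a median of −0.81. Among those averaging at least 20 CPM the median was −0.39. Over all genes 4.82% were called higher and 6.89% lower. Icos, a costimulatory receptor, rose from 127 and 132 CPM to 313 and 331 CPM, a log2 difference of 1.27 (SE 0.11, adjusted p = 4.34e-05 by edgeR). Pdcd1, which encodes PD-1, rose from 42.1 and 49.5 CPM to 109 and 91.1 CPM, a log2 difference of 1.09 (SE 0.16, adjusted p = 0.0011 by edgeR). For both genes each KO value was above both WT values. Dpp4 fell from 30.7 and 69.6 CPM to 2.91 and 4.97 CPM, and Ly6c2, Cd160, Cd9, Cd2, Cd5 and Cd7 fell too, by 0.63 to 2.87 on the log2 scale. Cells with no UMI of the 5 markers, of which Ly6c2 and Cd160 are 2, gave 0.33 for Dpp4, which reversed its direction, and Cd5 at −0.19 and Cd9 at −1.24 were not called there. Cd27 stood at 30.1 and 75.97 CPM in WT and 6.45 and 12.1 CPM in KO and Cd44 at 423 and 323 and 575 and 527 CPM, and neither passed the test (adjusted p = 0.0748 and 0.0574 by edgeR). Both were called with the replicate block, at adjusted p = 1.34e-13 and 0.000123.

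Of 23 genes of the antigen receptor's machinery, 3 rose, 4 fell and 16 did not pass the test (median −0.049). Prkcq, protein kinase C theta, fell from 263 and 345 CPM to 109 and 116 CPM, a log2 difference of −1.48 (SE 0.12, adjusted p = 3.02e-05 by edgeR). Vav3, a guanine nucleotide exchange factor, fell from 25.99 and 43.1 CPM to 2.14 and 2.05 CPM, a log2 difference of −4.09 (SE 0.27, adjusted p = 7.91e-06 by edgeR). Clnk, an adaptor of the SLP-76 family, rose from 636 and 600.4 CPM to 1235 and 1280.4 CPM, a log2 difference of 0.98 (SE 0.13, adjusted p = 0.000581 by edgeR). Lat and Zap70 rose by 0.56 and 0.38, and Cblb fell by 0.67 on the log2 scale. Lat was called in 17, Zap70 in 6 and Cblb in 10 of 18 alternatives, with adjusted p by edgeR of up to 0.493 for Zap70 and 0.712 for Cblb. The CD3 chains Cd3e, Cd3g and Cd3d had log2 differences of −0.028, −0.081 and 0.017 with SE of at most 0.14. The constant gene Trdc stood at 1839 and 2078 CPM in WT and 1794 and 2010.4 CPM in KO.

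Of 9 secreted effectors that passed the filter on low counts, out of 16, 3 rose and 1 fell, with a median log2 difference of 0.29. Tnf, the tumour necrosis factor gene, stood at 46.8 and 40.2 CPM in WT and 150.5 and 159.6 CPM in KO, with no overlap and a log2 difference of 1.79 (SE 0.13, adjusted p = 1.71e-05 by edgeR). Csf2, which encodes GM-CSF, stood at 23.9 and 20.6 CPM and 41.9 and 33.2 CPM and was called at 0.71 (SE 0.21, adjusted p = 0.0487 by edgeR), and it was not called in 10 of 18 alternatives. Areg had 0 UMIs in both WT libraries and 1.75 and 2.41 CPM in KO, for which no fold is given. Tnfsf11, the RANK ligand gene, fell from 10.9 and 9.31 CPM to 2.41 and 3.496 CPM. Il17f was at most 0.520 CPM in every library.

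Among 10 cytotoxic and NK-type genes that passed the filter, Gzmb and Prf1 rose and the median log2 difference was 0.011. Among those averaging at least 20 CPM the median was 0.50. Gzmb, granzyme B, stood at 22.3 and 29.9 CPM in WT and 196 and 169 CPM in KO, with a log2 difference of 2.75 (SE 0.17, adjusted p = 5.55e-06 by edgeR). Prf1, the pore protein perforin, stood at 6.24 and 10.3 CPM and 33.8 and 30.96 CPM, a log2 difference of 1.92 (SE 0.23, adjusted p = 0.000367 by edgeR). Both were called in each of 18 alternatives. The rule limits Gzma, another granzyme, to 1 UMI, so its level is not given. Nkg7, a granule protein, was at 77.4 and 152 CPM in WT and 101 and 55.2 CPM in KO, and the groups overlapped.

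Of 16 S100, galectin and related genes, 3 rose, 1 fell and 12 did not pass (median 0.071). S100a6 stood at 6028 and 4358 CPM in WT and 5569 and 5164 CPM in KO, and its log2 difference was −0.0057 (SE 0.19, adjusted p = 0.993 by edgeR). Tmem176a and Tmem176b, a pair of membrane proteins, rose by 0.86 and 0.75 on the log2 scale, and Capg by 0.81. Ramp1, part of the receptor for the nerve peptide CGRP, fell from 198 and 217 CPM to 139 and 156 CPM, a log2 difference of −0.54 (SE 0.11, adjusted p = 0.00701 by edgeR).

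Genes of the cell cycle fell, with 16 of 18 lower and a median log2 difference of −2.14, but a handful of WT cells carried most of that RNA. Mki67 stood at 111 and 125 CPM in WT and 33.3 and 25.6 CPM in KO, Top2a at 92.5 and 126 and 29.7 and 28.2 CPM, and Ube2c at 62.9 and 92.6 and 8.05 and 5.798 CPM. Birc5 fell by 3.88 on the log2 scale. In WT, 16 of 268 and 24 of 273 cells held 5 or more UMIs of 10 cycle genes, and these cells held 83.4% and 92.1% of all such UMIs. In KO, 36 of 4018 and 31 of 5640 cells did, with 25.3% and 16.5% of the UMIs. Among cells of 3000 to 8000 UMIs, an alternative added after seeing the data, the log2 difference of Cdk1 turned from −0.77 to 1.88 (edgeR adjusted p = 0.0122, in a range of 0.00367 to 0.94 over 16 alternatives) and that of Top2a from −1.96 to 0.40. That alternative called 765 genes. Cells with fewer than 2 UMIs of the cycle list gave 582. They were only 24 of 268 and 45 of 273 cells in WT and 756 of 4018 and 1075 of 5640 in KO.

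**Figure D3:**
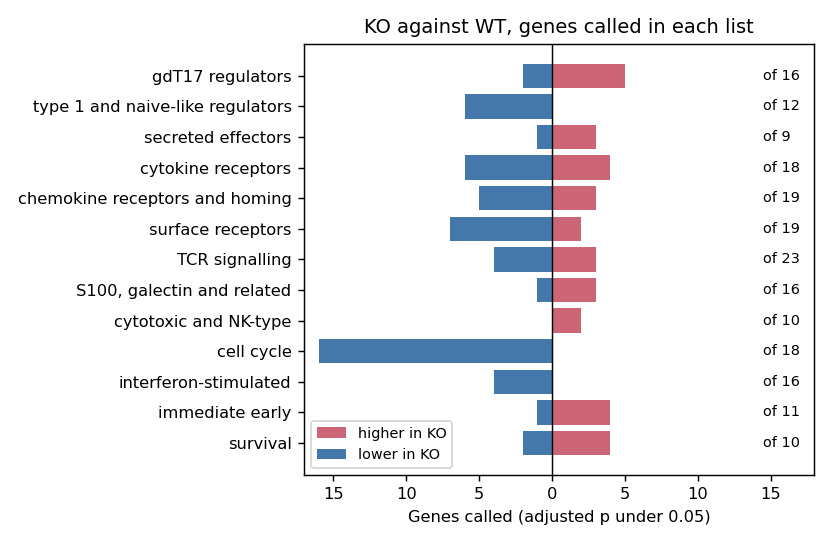
Number of genes called higher (right, red) and lower (left, blue) in KO against WT Trgv6 Trdv4 cells, for each list of genes, with the number tested at the right edge. Over all genes 4.82% were called higher and 6.89% lower. The cell cycle list stands out on the lower side with 16 of 18.

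Of the 16 interferon-stimulated genes, 4 fell, among them Ifi27l2a from 43.1 and 65.7 CPM to 11.5 and 13.3 CPM, a log2 difference of −2.18 (SE 0.18, adjusted p = 3.03e-05 by edgeR), and 12 did not pass (median of the list −0.44). Of 11 immediate early genes, 4 rose and 1 fell (median 0.36). Jund stood at 549 and 489.6 CPM in WT and 803 and 864 CPM in KO, and Jun at 2.599 and 5.88 and 10.5 and 11.3 CPM. These genes answer stimulation and the handling of cells alike. Of the markers of other cells, 3 of 4 B cell genes and 4 of 5 αβ T genes fell, with Cd8b1 at 8.84 and 28.4 CPM in WT and 1.399 and 2.41 CPM in KO (0.021 on the log2 scale in cells with no UMI of the 5 markers) and Ighm at 36.9 and 59.3 and 6.802 and 8.54 CPM. Hba-a2 rose from 0 and 3 UMIs in WT. Of the 8 myeloid genes 1 was tested and did not pass, and of the 4 platelet genes none passed the filter.

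The largest rises outside the lists were in genes with little RNA in WT. Tmeff2, a membrane protein known from brain and prostate, stood at 9.35 and 10.8 CPM in WT (18 and 22 UMIs) and 279.9 and 404 CPM in KO. The groups were far apart and the log2 difference was 5.03 (SE 0.23, adjusted p = 9.49e-07 by edgeR). Myo16, an unconventional myosin of neurons, stood at 0.52 and 2.94 CPM in WT, from 1 and 6 UMIs, and 128 and 124 CPM in KO, a log2 difference of 6.11 (SE 0.29, adjusted p = 9.49e-07 by edgeR). It was caught in 43.3% and 44.6% of KO cells and 0.373% and 1.83% of WT cells, and at 2000 UMIs per cell in 20.97% and 21.1% against 0.375% and 0.372%. WT cells with neither segment held one in 0.0921% and 0.258% at that depth.

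Dlgap1, a scaffold of synapses, stood at 2.599 and 0.98 CPM and 69.1 and 97.1 CPM, a log2 difference of 5.50 (SE 0.36, adjusted p = 9.84e-06 by edgeR), and Mcc at 1.04 and 4.901 CPM and 111 and 121 CPM, a log2 difference of 5.21 (SE 0.27, adjusted p = 2.05e-06 by edgeR). Slc15a3, a lysosomal peptide transporter, and Edil3, a secreted integrin ligand, rose by 4.46 and 4.05 on the log2 scale. Hsd17b13, the chemokine receptor Ccr1, Pram1, the cadherin Fat3 and Plek, a substrate of protein kinase C, rose by 2.79 to 3.81 on the same scale. The counts of Ccr1 and Fat3 in WT were at most 14 UMIs. Of these 11 genes, 9 were called in every alternative, and Ccr1 and Fat3 were called in 17 and 16 of 18. The size was less firm. Over 18 alternatives Tmeff2 lay at 3.48 to 5.96, Myo16 at 3.66 to 7.84 and Dlgap1 at 4.91 to 10.78 on the log2 scale. The lowest values of Tmeff2 and Myo16 and the highest of Dlgap1 came from cells with fewer than 2 cycle UMIs. That set held only 24 and 45 WT cells. Myo16 was at 5.43 without WT 1 and at 7.84 without WT 2, and Dlgap1 at 6.41 and 4.93.

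The largest falls, beside those in the lists, were in Sox5, Pard3, Sidt1, H2ac8, Nedd4l, Kbtbd11 and Clec2i. Kbtbd11 stood at 59.8 and 82.3 CPM in WT and 6.06 and 7.38 CPM in KO, a log2 difference of −3.44 (SE 0.17, adjusted p = 1.45e-06 by edgeR). Pard3, a polarity protein, stood at 56.6 and 63.2 CPM and 5.56 and 3.11 CPM, a log2 difference of −3.86 (SE 0.27, adjusted p = 2.55e-05 by edgeR). Nedd4l, a ubiquitin ligase, and Clec2i, a lectin-type ligand, fell by 3.45 and 3.29 on the log2 scale. These 4 were called in every alternative. Sox5, a partner of SOX13, stood at 22.3 and 69.6 CPM and 1.63 and 3.36 CPM, where WT 2 was well above WT 1. It was called in 11 of 18 alternatives. Among cells with no UMI of the 5 markers Sox5 was at −0.99 and not called (adjusted p = 0.384 by edgeR). Sidt1 at 79.5 and 174 and 6.41 and 12.1 CPM was called in 9 of 18, and the histone gene H2ac8, one of many near-identical copies, was not called among cells with no UMI of the 10 cycle genes.

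Counts in WT 2 were above those of WT 1 for several genes that are high in the other splenic cells of WT. Cd27 was 30.1 and 75.97 CPM in the Trgv6 Trdv4 cells of WT 1 and WT 2 and 293 and 339.6 CPM in the other cells, Ccl5 144 and 393 against 2226 and 2372 CPM and Themis 97.7 and 252 against 1001 and 987 CPM. These 3 genes did not pass the test between KO and WT, while Cd27 and Themis were called with the replicate block. Cells with no UMI of any other Trgv segment, 92 and 87 in WT, gave 444 called genes, and equal numbers of 268 cells per library gave 840.

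Many calls of single genes did not hold in every alternative. Of 114 called genes that are named or in the lists, 18 were not called without WT 1 (edgeR adjusted p of 0.0512 to 0.281), 33 without WT 2 (0.0558 to 0.599), 38 without KO 1 (0.051 to 0.368) and 29 without KO 2 (0.0586 to 0.461). Without WT 1 these included Aff3, Cxcr4, Gata3, Hba-a2, Jun and Sidt1, and without WT 2 Aff3, Bcl2a1b, Bcl2a1d, Bcl2l11, Cd160, Cd5, Hba-a2, Il12rb1, Il2ra, Sidt1 and Sox4. Without KO 1 they included Bcl2a1b, Bcl2a1d, Blk, Cd160, Cd5, Cxcr4, Gata3, Il2ra, Jun, Jund, Lat, Nfkbiz, Ramp1, Sidt1, Sox5 and Tnfsf11, and without KO 2 Blk, Cd160, Cxcr4, Foxp1, Gata3, Hba-a2, Jun, Jund, Nfkbiz and Sox5. Areg, Cblb, Cdk1, Csf2, Il18rap, Il6ra, Il6st and Zap70 each lost their call without 2 or more of the libraries. The choice of cells ended calls of these genes too. Among cells with no other Trgv UMI 46 of 112 tested were not called, and among cells of 3000 to 8000 UMIs 41 of 112. With fewer than 2 cycle UMIs, which left 24 and 45 cells in WT, 31 of 93 were not called. Among cells without the 5 markers it was 29 of 111.

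The second comparison asked what else differed between Trgv6 Trdv4 cells without and with Il17a UMIs. Only the KO libraries held enough of both, with 4018 against 379 cells in KO 1 and 5640 against 1050 in KO 2, and each library was its own control. The cells without Il17a held 25729055 and 36046014 UMIs in all, and those with Il17a 2728754 and 7468556. In both libraries that is more UMIs per cell with Il17a. Of 11575 genes tested, 495 were called (4.28%), with 260 higher in the cells without Il17a (2.25%) and 235 lower (2.03%), and differences were small. The median log2 difference of all genes was 0.0020. The calls rest on 2 libraries, and leaving 1 out would leave no residual degree of freedom. Their p-values therefore draw mostly on a spread shared over genes. A gene whose gap differs between the 2 libraries can still be called, as Bach2 was below. Without the library as a block 1 gene was called, with 443 at an unadjusted p under 0.05, DESeq2 called 93, and 37 were called with each cell thinned to 2000 UMIs. That gene was Nrxn3, named after its values were seen, at −1.80 (SE 0.16, adjusted p = 0.0394 by edgeR without the block). Of 81 called genes that are named or in the lists, the other 80 lost their call without the block, 46 lost it by DESeq2 and 60 of 76 tested lost it after thinning.

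Il17f, the neighbour and relative of Il17a, was far lower in the cells without Il17a UMIs. It stood at 0.272 and 0.0832 CPM without and 17.2 and 6.16 CPM with Il17a, a log2 difference of −5.99 (SE 0.39, adjusted p = 2.46e-19 by edgeR). The values without Il17a rest on few UMIs, so the size of the fold is uncertain. The adjusted p of Il17f without the block was 0.0884 by edgeR, and it was called in the other 7 alternatives. Among secreted effectors, Areg (1.75 and 2.41 against 5.497 and 6.29 CPM) and Tnf (150.5 and 159.6 against 190.2 and 178 CPM) were lower as well and Ltb higher, and 7 of 11 did not pass. Of 16 regulators of the lineage, 5 were lower and 11 did not pass, with a median of −0.067. Maf stood at 1409 and 1414 CPM without and 1629 and 1625 CPM with Il17a, a log2 difference of −0.19 (SE 0.024, adjusted p = 1.73e-08 by edgeR). Blk, Zeb2 and Nfkbiz were lower by 0.18, 0.23 and 0.39 on the log2 scale, and Bhlhe40 by 0.57.

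Among the genes higher without Il17a was Klf2. Klf2, which keeps S1pr1 on, stood at 849 and 895 CPM without and 589 and 649 CPM with Il17a, a log2 difference of 0.50 (SE 0.029, adjusted p = 2.19e-21 by edgeR). S1pr1 itself stood at 152 and 171 CPM and 94.9 and 115 CPM, a log2 difference of 0.62 (SE 0.052, adjusted p = 2.36e-14 by edgeR). Both genes were higher in both libraries. Of 12 genes in the list of type 1 and naive-like regulators, 5 were higher and 7 did not pass (median 0.26), with Bach2 at 25.9 and 30.1 against 9.89 and 22.8 CPM and Tcf7 at 23.6 and 38.5 against 13.9 and 31.2 CPM. Klf3, Cxcr4, Cd7, Dtx1, Ms4a4b, Fgf13, Tagap, Prss12 and Sh2d3c were higher by 0.53 to 0.79 on the log2 scale. Of 10 cytotoxic and NK-type genes 5 were higher, among them Nkg7 at 101 and 55.2 against 63.4 and 41.2 CPM and Ctsw at 31.5 and 21.3 against 17.96 and 16.7 CPM.

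Of 11 immediate early genes, 4 were lower without Il17a, 1 was higher and 6 did not pass. Egr1, an early response gene, stood at 10.3 and 8.77 CPM without and 32.2 and 26.2 CPM with Il17a, a log2 difference of −1.60 (SE 0.13, adjusted p = 4.62e-15 by edgeR). Nr4a1 stood at 3.81 and 3.58 CPM and 10.99 and 5.49 CPM, and Jun and Zfp36 were lower too (Jun was at 0.26 on the log2 scale after thinning), while Btg2 was higher. Pdcd1 stood at 109 and 91.1 CPM and 188 and 157 CPM, a log2 difference of −0.77 (SE 0.051, adjusted p = 9.24e-19 by edgeR). Sdc4, a heparan sulphate proteoglycan, stood at 62.1 and 48.97 CPM and 154 and 119 CPM, a log2 difference of −1.28 (SE 0.059, adjusted p = 6.58e-26 by edgeR), and Rgs1, a brake on chemokine receptors, at 27.3 and 20.8 and 56.1 and 45.8 CPM. Rbms3, S1pr3, Lrrc17, Gstm5, Palld, Stab2, Zbtb7c, Fat3 and Plk3 were lower by 0.60 to 1.26 on the log2 scale. Ramp1 stood at 139 and 156 CPM and 202 and 216 CPM, a log2 difference of −0.48 (SE 0.045, adjusted p = 9.53e-13 by edgeR).

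The other lists are read beside the 4.28% of all genes called. Of 18 cytokine receptors, Ifngr1, Il18r1 and Il7r were higher, by 0.53, 0.42 and 0.13, and Ifngr1 was at −0.054 after thinning. Of 19 chemokine receptors and homing genes 6 were higher and 3 lower, and of 23 genes of the antigen receptor 1 was higher and 7 lower, with Cd3g at 1782 and 1722 against 2047 and 1971 CPM. Of 16 interferon-stimulated genes edgeR called 0. The cell cycle list had 1 higher and 2 lower of 18, the S100 list 3 higher and 2 lower of 16, and survival genes 1 higher and 3 lower of 10. Hba-a2 and Hbb-bt were higher, at 5.29 and 10.6 and 6.57 and 14.3 CPM without Il17a, and at −0.70 and −0.011 on the log2 scale after thinning. The 5 erythroid markers summed to 35.8 and 72.8 CPM without and 41.0 and 24.6 CPM with Il17a, and their part in the other differences was not tested.

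**Figure D4:**
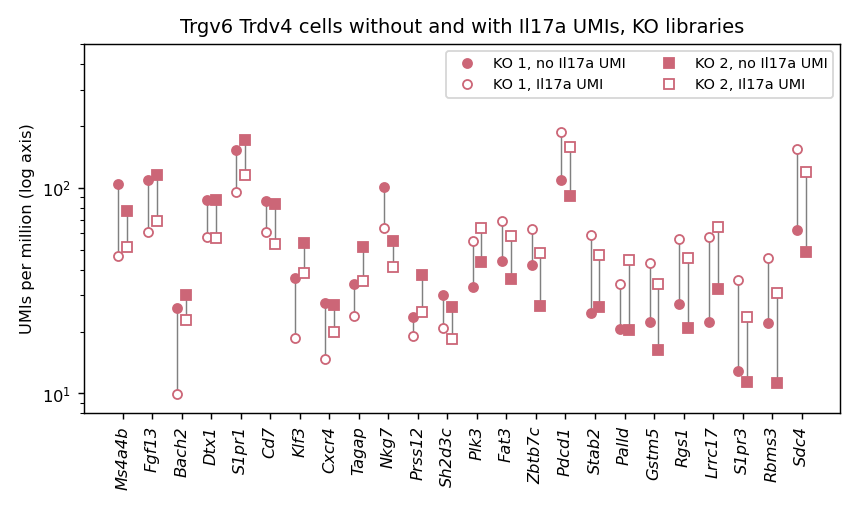
Level of 24 named genes in Trgv6 Trdv4 cells without (filled) and with (open) Il17a UMIs, in CPM on a log axis, for KO 1 (circles) and KO 2 (squares), with a line between the cells of 1 library. The first 12 genes are higher and the last 12 lower without Il17a in both libraries, and by fitted log2 difference Sdc4 stands farthest from 0, at −1.28, although single libraries show wider gaps for other genes.

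The third comparison set the Trgv6 Trdv4 cells against all other splenic cells of the same libraries, with genes of the γδ receptor left out because they moved with the choice. In WT, 4948 of 13280 genes were called (37.3%), with 2743 higher (20.7%) and 2205 lower (16.6%), and the median log2 difference of all genes was −0.031. All 16 genes of the S100 and galectin list were higher, with a median log2 difference of 3.26. S100a4 stood at 3546 and 2154 CPM against 259 and 178 CPM in the other cells, a log2 difference of 3.74 (SE 0.078, adjusted p = 1.3e-18 by edgeR). Anxa1 and Ltb4r1 stood at 66.00 and 49.01 and 231 and 179.9 CPM against 5.55 and 4.505 and 11.6 and 10.1 CPM. None of these values overlapped between the cells, but how many of all genes tested share this was not counted for this comparison.

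Of 16 regulators of the lineage 10 were higher in WT, 2 lower and 4 not past the test (median 0.83). Zbtb16, the factor PLZF, stood at 564 and 379 CPM against 42.8 and 29.7 CPM, a log2 difference of 3.75 (SE 0.076, adjusted p = 1.01e-18 by edgeR), and Blk at 867 and 771 against 67.6 and 61.9 CPM. Sox4 and Nfkbiz were lower. Of the receptors, Il1r1 stood at 363 and 339.7 against 21.4 and 17.7 CPM, Il23r at 481 and 549 against 44.1 and 40.1 CPM and Ccr2 at 694 and 628 against 58.4 and 49.8 CPM, each higher. Clnk was higher by 4.30 on the log2 scale, the most among the genes of the antigen receptor, of which 8 of 24 were higher and 10 lower.

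Of 12 type 1 and naive-like regulators 8 were lower and 1 higher (median −1.49), with Lef1 at 174 and 243 against 742 and 736 CPM and Satb1 at 113 and 205 against 545 and 555 CPM. Of 12 cytotoxic and NK-type genes 9 were lower and Gzmb was higher, at 22.3 and 29.9 against 8.29 and 6.02 CPM. Of 16 interferon-stimulated genes 13 were lower (median −1.25), with Isg15 at 12.99 and 21.6 against 40.7 and 60.01 CPM. Of 18 cycle genes 12 were higher, in libraries where few cells carry most of that RNA as given above. Cd27 at 30.1 and 75.97 against 293 and 339.6 CPM and Il2rb at 103 and 150.0 against 333 and 332 CPM were lower, and Cd27 was not called without WT 1 or WT 2 (adjusted p = 0.216 and 0.0626 by edgeR). Of the 21 surface receptors 6 were higher and 9 lower, and Cd44 stood at 423 and 323 against 81.1 and 74.5 CPM.

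**Figure D5:**
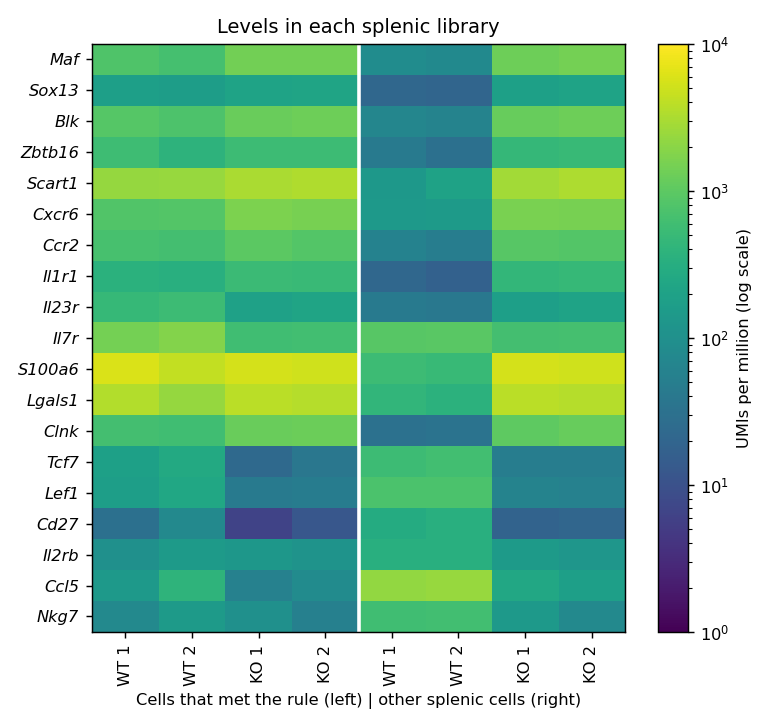
Level of 19 genes in each splenic library, in CPM on a log colour scale, for the Trgv6 Trdv4 cells (left) and the other cells (right). The other cells of WT differ from the Trgv6 Trdv4 cells in most rows, and the other cells of KO show nearly the levels of the Trgv6 Trdv4 cells, as for Scart1 at 2816 and 3260 against 3057 and 3335 CPM.

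In KO the same comparison called 35 of 13280 genes (0.264%), 2 higher and 33 lower. Scart1 stood at 3057 and 3335 CPM against 2816 and 3260.2 CPM in the other cells and Maf at 1409 and 1414 against 1312 and 1437 CPM. These markers of the lineage did not pass the test, with log2 differences of 0.071 and 0.036. Against other cells with neither segment Maf was called, at 0.48 (adjusted p = 0.0053 by edgeR), the one call in 11 alternatives, where its adjusted p ranged up to 1, and Scart1 was at 0.35 and was not called. The UMIs of the 16 regulators of the lineage summed to 6027 and 6080 CPM in the Trgv6 Trdv4 cells against 5466 and 5878 CPM in the others. Of the other KO cells, 2272 of 3800 and 3313 of 6039 had a Trdv4 UMI and no Trgv6 UMI.

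When the other cells were limited to those with neither segment, 607 and 837 cells in KO, 1020 genes were called, 385 higher and 635 lower. The count of 35 moved to 0 by edgeR without the library as a block (320 at an unadjusted p under 0.05, DESeq2 31), to 157 without KO 2, to 475 without WT 1 and to 424 without WT 2. It was 31 without KO 1, of which 5 were among the 35. Among the 35, Il17f was lower, at 0.272 and 0.0832 against 4.22 and 2.66 CPM, where the other cells include those chosen for Il17a. The lower values rest on few UMIs. Egr1 was lower too, at 10.3 and 8.77 against 14.1 and 13.4 CPM. The Il17a cells among the others held more Egr1, as given above, and their part in this gap was not tested. Il6ra at 1.904 and 1.75 against 5.69 and 3.08 CPM and Ifi27l2a at 11.5 and 13.3 against 16.97 and 17.8 CPM were also lower.

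Of genes of at least 20 CPM, 9 were called in WT and in KO alike, with the same direction. C030034L19Rik, a noncoding transcript, was higher, at 178 and 155 against 12.9 and 10.8 CPM in WT and 245 and 223 against 195 and 199 CPM in KO. Slc4a7, a bicarbonate transporter, was higher at 121 and 129.9 against 87.2 and 89.6 CPM in WT and 79.8 and 87.6 against 66.1 and 73.9 CPM in KO. Txk, a TEC family kinase, was lower at 111 and 149 against 281 and 339.8 CPM in WT and 51.5 and 42.8 against 66.6 and 49.4 CPM in KO. Rbpms, Ttc28, A630014C17Rik, Ifi27l2a, Nedd4l and Clec2i were lower by 1.35 to 2.44 on the log2 scale in WT. The difference between the Trgv6 Trdv4 cells and the others was itself different between the labels for 4200 genes (31.6%) by the interaction in the same fit, and for 2061 when the other cells were limited to those with neither segment.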

How the data were processed

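The authors aligned and counted the libraries with Cell Ranger 8.0.1 on GRCm39, per the submitters' processing notes, and split each pool into WT and KO cells by hashtag. The deposited values are raw counts of UMIs for each gene in each cell. The genotype was read from the hashtag label, and the pool number served as the replicate number.

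Cells with at least 500 UMIs were kept, and no doublet caller was run beyond the authors' hashtag calls. UMIs were summed per library and class of cells, and CPM are UMIs per 1000000 gene UMIs of those cells. Ribosomal, Gm-number and mitochondrial genes (9623 by the start of their names) were left out. The methods of the study name the same kinds of genes, but its listed results keep some of them, such as Rplp0 and Mrps5. The genes left out are therefore not the same set. Sums were tested with edgeR 4.0.16 (quasi-likelihood, TMM, low counts filtered, Benjamini-Hochberg over all genes tested, called under 0.05) in R 4.3.3. DESeq2 1.42.0 and other choices of cells, filters and libraries were alternatives. The scripts were tested on simulated data. Shares have exact Clopper-Pearson 95% intervals and were compared by an exact two-sided permutation test. For thinned values, cells were drawn down to 2000 UMIs.

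The named genes are the 12 largest rises and 12 largest falls by log2 difference for the first 2 comparisons, taken from called genes whose average level reached 20 CPM and whose sign was shared by both pools. For the third, they are up to 10 each way among genes called in WT and in KO alike, to which Gfi1 and genes of the lists were added. The cells and lists were chosen with earlier results of these data known. Some items are not reported here.

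The numbers of the pools were checked for pairing. Across 6138 genes of over 20 CPM, the deviations of WT and KO correlated at r = 0.22, and both libraries of a pool shared a droplet run. The blocked fit is therefore given beside results it changed.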

Additional observations from a re-analysis of the deposited data

Results flagged for a closer look

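The log2 difference between the Trgv6 Trdv4 cells and the other splenic cells itself differed between the labels by the interaction term in edgeR. KO minus WT was positive for 1740 genes and negative for 2460, which gives the sign of the term and not which label had the wider gap. Of the 9 genes called in both labels with the same direction and at least 20 CPM, 7 differed, each with the smaller gap in KO. KO minus WT on the log2 scale was −3.63 for C030034L19Rik and −0.30 for Slc4a7, which were higher in the Trgv6 Trdv4 cells. For the genes lower in these cells it was 1.29 for Ttc28, 1.34 for Ifi27l2a, 0.72 for Nedd4l, 0.54 for Clec2i and 0.92 for Txk. The other splenic cells held 10 or more UMIs of Maf, Scart1, Blk and Cxcr6 together in 96.1% and 96.5% of cells in KO and in 5.86% and 5.87% in WT.

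The same rule was also met in the thymic γδ T cell sort, which no comparison used. It took 23.5% of cells in KO 1 and 30.5% in KO 2, against 0.336% (23 cells) and 0.437% (35 cells) in the WT libraries.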

How the results depend on the processing

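The 1347 genes called between KO and WT numbered 765 among cells of 3000 to 8000 UMIs, 840 with equal numbers of cells, 582 with fewer than 2 cell cycle UMIs, 932 without 5 markers of other γδ T cells and 444 without other Trgv UMIs. The set with fewer than 2 cell cycle UMIs held only 24 and 45 WT cells. Leaving out a library gave 670 to 1357, and the replicate block gave 1987. The 495 calls against Il17a cells were 93 by DESeq2, 37 after thinning and 1 without the replicate block. The 35 calls against other KO cells were 229 without the filter, 0 without the replicate block, 1020 against cells with neither segment, 82 with ribosomal, Gm-number and mitochondrial genes kept, and 31 to 475 without a library. The interaction called 2746 genes without the replicate block, 2061 against cells with neither segment and 2512 to 4046 without a library. In WT the calls against other cells were 3902 to 4426 without a library. The difference in share was 18.1 points after thinning, which lowered the share with both labels. It was 20.8 with at least 2 UMIs of each segment and 54.4 for all cells with both segments. With the pools paired it was 46.9, and without a library 45.4 to 48.5.

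Some genes reversed their direction on the log2 scale, and the cause was not tested. Among cells of 3000 to 8000 UMIs these were Cdk1 at 1.88, H2ac8 at 0.075, Mcm6 at 0.23, Rrm2 at 0.92, Tk1 at 0.65 and Top2a at 0.40. With fewer than 2 cycle UMIs it was Mki67 at 0.95. Mki67 is itself in that list, so the filter capped it at 1 UMI per cell, and only 24 and 45 WT cells were left. With no UMI of 10 cycle genes they were H2ac8 at 0.014, Mcm6 at 0.10, Rrm2 at 0.74 and Tk1 at 0.72. Without the 5 markers they were Cd8b1 at 0.021, Dpp4 at 0.33, Il6ra at 0.28, Il6st at 2.15, Rtp4 at 0.084 and Sox4 at 0.19, and without other Trgv UMIs Cdk1 at 0.11. Against Il17a cells, after thinning, Hba-a2 was at −0.70, Hbb-bt at −0.011, Ifngr1 at −0.054 and Jun at 0.26. Against other KO cells Maf was at −0.027 without KO 1, against 0.082 without KO 2.

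Between KO and WT, the blocked fit added calls for Ccr2, Cd27, Cd44, Rora, Scart1 and Themis, removed that of Ifngr1, and changed no other call of the genes whose test is described. The WT libraries limit precision, with 268 and 273 cells. Where a library was left out, the lone library of its label was assumed to vary like the others.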
